A study of Homo sapiens with 8 samples.

Results

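The regions described here are the JunD peaks of highest pileup, meaning the listed peaks on chromosomes 1 to 22 whose pileup, the number of overlapping fragments that the peak caller counted at the summit, was 10 or more. The rule kept 414 of the 59994 peaks listed on those chromosomes and of 61360 peaks in all. The members were selected on their pileup, so their pileup, fold enrichment, p and q describe them and test nothing. The cells were BEAS-2B, an established human cell line grown from bronchial epithelium and transformed with a virus. For chromatin immunoprecipitation (ChIP), cells were exposed to 8% cigarette smoke extract for 24 h, and 1 library was precipitated with a JunD antibody and 1 was made from input chromatin, with no transfection given on their labels. For RNA sequencing, cells were transfected for 12 h with the plasmid pcDNA3.1-JunD (3 libraries) or with the empty vector (3 libraries), and all 6 were then exposed to smoke extract for 24 h, at a concentration that the labels leave out. The peaks are therefore not taken to show binding in the transfected cells, and no library came from cells without smoke extract. Whether the 3 libraries of a group are separate cultures is not stated, so a p-value here reflects library-to-library spread that may be technical.

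JunD is a subunit of activator protein 1 (AP-1), a transcription factor built as a pair of basic leucine zipper proteins of the Jun, Fos, ATF and Maf families. Jun and Fos pairs prefer the letters TGACTCA, and pairs with ATF proteins prefer the cAMP response element (CRE), TGACGTCA. In airway epithelium AP-1 is known for its part in the response to smoke, oxidants and cytokines, with interleukin and matrix protease genes among its targets. A pileup is a raw height, not corrected for the background at its place.

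Of 33725 RefSeq promoters on GRCh38.p14 (250 bases before to 50 after a gene's start), 102 windows belonging to 97 symbols were touched by 77 members. Of the 200 genes of the expression table that start within 1 kb of a member, 115 matched a RefSeq promoter by symbol. The first 250 bases of 7 of these windows are shown, 5′ to 3′ on the gene's strand, with TGACTCA and TGACGTCA in capitals on either strand. MRPL4 (chr19:10251964-10252213, + strand), TP53INP2 (chr20:34704094-34704343, + strand) and ZNF335 (chr20:45972204-45972453, - strand) are shown because they hold a CRE, and ITPR2-AS2 (chr12:26318674-26318923, + strand) because it holds an AP-1 match. IL6 (chr7:22726950-22727199, + strand), CTH (chr1:70411018-70411267, + strand) and CD55 (chr1:207321428-207321677, + strand) are shown because their RNA differed between the transfected groups, as described further on.
MRPL4: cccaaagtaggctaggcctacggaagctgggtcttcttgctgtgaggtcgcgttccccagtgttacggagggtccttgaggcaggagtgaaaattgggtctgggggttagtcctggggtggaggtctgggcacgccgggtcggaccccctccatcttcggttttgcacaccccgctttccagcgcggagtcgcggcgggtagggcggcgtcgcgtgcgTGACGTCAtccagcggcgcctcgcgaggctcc
TP53INP2: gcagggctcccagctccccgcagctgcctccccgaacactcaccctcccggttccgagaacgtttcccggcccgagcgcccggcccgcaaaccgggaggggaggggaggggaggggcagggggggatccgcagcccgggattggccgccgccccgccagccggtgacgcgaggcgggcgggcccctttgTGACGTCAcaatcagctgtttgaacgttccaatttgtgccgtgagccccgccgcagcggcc
ZNF335: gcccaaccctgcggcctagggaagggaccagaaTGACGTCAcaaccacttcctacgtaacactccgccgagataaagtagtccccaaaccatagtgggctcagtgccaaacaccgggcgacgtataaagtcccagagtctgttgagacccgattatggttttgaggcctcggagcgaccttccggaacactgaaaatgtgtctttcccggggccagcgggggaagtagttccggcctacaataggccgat
ITPR2-AS2: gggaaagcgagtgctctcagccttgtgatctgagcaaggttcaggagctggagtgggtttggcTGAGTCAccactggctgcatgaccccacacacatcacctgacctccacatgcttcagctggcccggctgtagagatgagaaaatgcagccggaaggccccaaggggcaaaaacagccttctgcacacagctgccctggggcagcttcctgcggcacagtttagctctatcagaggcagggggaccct
IL6: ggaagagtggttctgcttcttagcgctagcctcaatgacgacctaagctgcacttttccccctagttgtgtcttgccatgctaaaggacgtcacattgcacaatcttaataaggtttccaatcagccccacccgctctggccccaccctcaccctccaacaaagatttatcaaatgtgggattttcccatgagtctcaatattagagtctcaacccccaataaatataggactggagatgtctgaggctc
CTH: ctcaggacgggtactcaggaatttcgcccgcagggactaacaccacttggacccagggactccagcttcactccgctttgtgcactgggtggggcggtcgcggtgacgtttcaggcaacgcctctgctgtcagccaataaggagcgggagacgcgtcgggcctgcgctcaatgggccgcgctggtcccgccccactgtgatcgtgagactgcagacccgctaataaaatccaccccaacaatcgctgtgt
CD55: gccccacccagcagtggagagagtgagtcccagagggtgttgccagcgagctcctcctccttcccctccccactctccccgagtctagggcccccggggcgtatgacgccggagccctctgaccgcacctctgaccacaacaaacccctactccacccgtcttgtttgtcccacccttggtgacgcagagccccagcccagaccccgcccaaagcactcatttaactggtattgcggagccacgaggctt
The CRE match began 32 bases before the start in MRPL4, which encodes a mitochondrial ribosomal protein, 61 bases before it in TP53INP2, an autophagy gene, and 217 bases before it in ZNF335, a zinc finger gene. The AP-1 match of ITPR2-AS2, a non-coding RNA, began 187 bases before its start. Members covered 191, 144, 234 and 185 of the 250 bases in these 4 windows, and 235 in IL6, 224 in CTH and 96 in CD55. The CRE matches of TP53INP2 and ZNF335 lay within the member. That of MRPL4 lay wholly outside its member and ended 35 bases past its edge. The first 2 bases of the ITPR2-AS2 match lay outside its member. The other AP-1 match, in the window of LOC107986629, which is not shown, lay within its member. The IL6, CTH and CD55 stretches hold neither full motif, which says only that these letters are not in those windows.

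TGACTCA was present in 2 of the 102 promoters under members (1.96%, exact 95% interval 0.238 to 6.90%), in 5.70% of 719 promoters touched only by lower peaks and in 4.91% of all promoters. TGACGTCA was present in 6 of 102 (5.88%, 2.19 to 12.4%), against 1.67% and 1.87%. The core of ETS factors, CCGGAA, stood in 42 of 102 promoters (41.2%, 31.5 to 51.4%) against 16.8% and 17.33%, and the GC box GGGCGG, bound by Sp factors, in 67 of 102 (65.7%, 55.6 to 74.8%) against 48.3% and 45.04%. The CCAAT box was found in 46.1%, 33.1% and 34.4% of the 3 sets, the E box CACGTG in 7.84%, 7.23% and 7.18%, and TATAAA in 3.92%, 9.74% and 11.6%. All motifs were searched on both strands over the 300 bases and none of them holds another. The promoters under members were also richer in CG dinucleotides, with a median of 24 per window against 16 under lower peaks and 14 in all, and their median GC content was 62.8%, 59.0% and 58.7%, so the motif shares are set beside windows of another base composition. Several windows overlap or share a member, so that the 6 windows with a CRE hold 4 places, of which 3 lie within the member that touches the window, and intervals cover counting error only. They are a description and not a test, since peaks of 1 library are not replicates.

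The members' pileup ran from 10 to 327 with a median of 11, against 3 to 9 with a median of 5 in the other 59580 peaks. At the edge of the rule lay 195 members of pileup 10, with a median fold enrichment of 3.83, and 452 peaks of pileup 9, with a median of 3.87. The fold enrichment, p and q of each peak are the authors' own, from the deposited peak list. In all 61360 listed peaks the deposited p equalled the Poisson probability of more than the pileup over the background that the fold enrichment implies, within 0.1%, so the local background of each peak could be recovered. This background, the read level that the caller took from the input or its genome-wide mean, had a median of 2.495 in members and 0.721 in the other peaks. The authors' q was below 0.05 in 164 of 414 members (39.6%) and in 2.33% of the other peaks, so most members do not pass that threshold either.

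**Figure D1:**
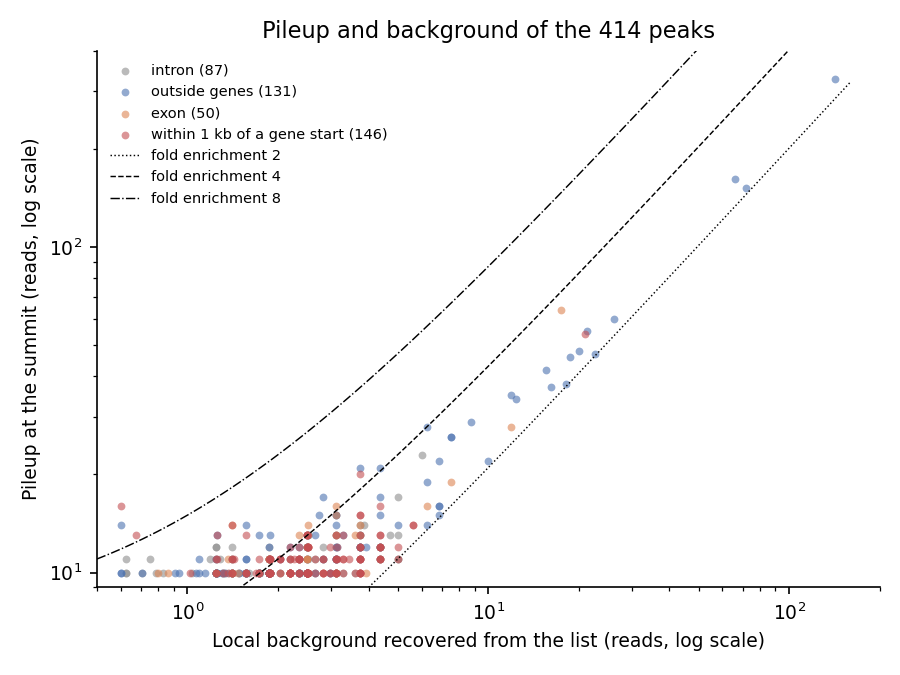
Pileup at the summit against recovered local background for the 414 members, both in reads on log scales, with 1 point per peak coloured by place and lines for 3 values of fold enrichment. The members of pileup 20 or more have folds of 2.03 to 4.64, and the 17 members of background below 1 reach a fold of 10.6.

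Members lay at gene starts far more often than lower peaks did. A peak was placed at a start when any base lay within 1 kb of the outermost annotated start of a gene of the expression table, otherwise in an exon, an intron or outside genes. Of 414 members, 146 (35.3%, exact 95% interval 30.7 to 40.1%) lay at a start, 50 (12.1%) in an exon, 87 (21.0%) in an intron and 131 (31.6%) outside genes. For the other peaks the shares were 2.90%, 6.51%, 41.4% and 49.2%. The start share was 1.73% at pileup 3, 7.72% at pileup 7, 22.8% at pileup 9, 34.9% at pileup 10 and 48.8% of the 84 peaks of pileup 11. Above that the order turned: of the 45 members of pileup 15 or more, 6 (13.3%, 5.05 to 26.8%) lay at a start and 31 (68.9%) outside genes, and of the 26 of pileup 20 or more, 2 lay at a start and 21 (80.8%) outside genes. Among members with q below 0.05 the start share was 23.2% of 164. Within the range of background 1 to 5, which holds 365 members, 38.6% of members and 6.76% of 12563 other peaks lay at a start. The median background in that range was still 2.35 for members and 1.25 for the other peaks, so the range does not match them.

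**Figure D2:**
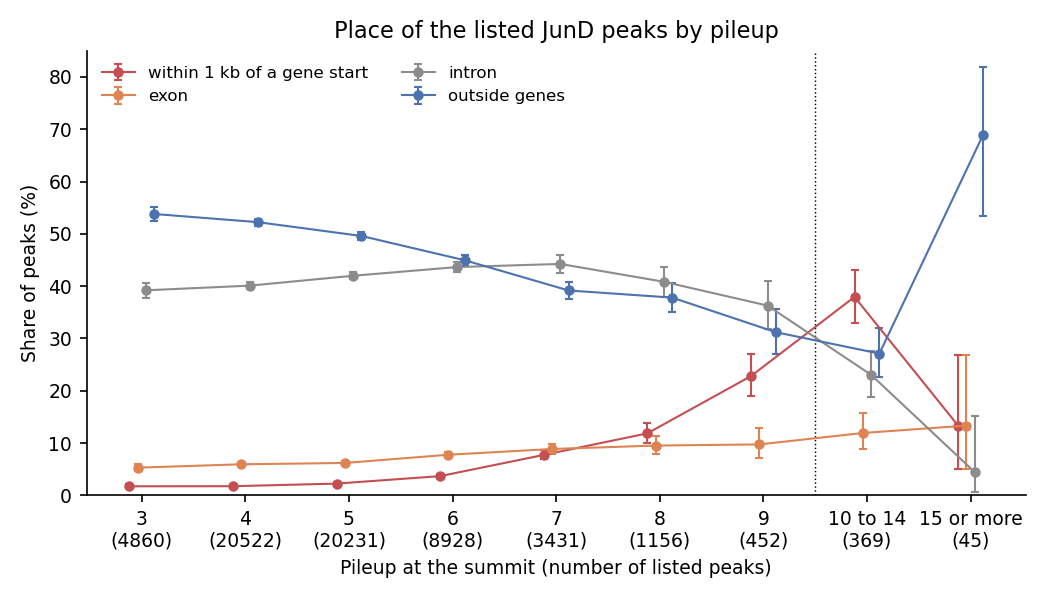
Share of listed peaks in each place class (%) by pileup, with exact 95% binomial intervals as bars and the number of peaks in brackets; the dotted line marks the threshold of 10. The start share runs from 1.73% at pileup 3 to 37.9% at pileup 10 to 14, and 68.9% of peaks of pileup 15 or more lie outside genes.

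The median distance from a member to the nearest start was 6.34 kb, against 43.2 kb for the other peaks. Where a member lay at a start, its centre was a median of 130 bp downstream of it (quartiles -182 and 428 bp, 86 downstream and 60 upstream or on it), and the other peaks at starts were centred a median of 10 bp downstream (quartiles -503 and 570 bp). Of the 146 members at starts, 51 (34.9%, 27.2 to 43.3%) had more than 1 gene start within 1 kb, and 45 (30.8%) had starts on both strands, against 10.7% and 9.31% of the 1729 other peaks at starts. In 25 of the 45 a pair of starts was divergent, the start on the - strand lying before that on the + strand. By the outermost starts of the expression table, PALB2 and DCTN5, and PCSK7 and RNF214, are divergent pairs. By the same starts RBKS and BRE, and GOLGA2 and SWI5, overlap. The RefSeq starts of RBKS and BRE, named BABAM2 there, and of GOLGA2 and SWI5 are in divergent order. A member touched a RefSeq promoter window in 11 of 50 exon cases (22%), against 2.32% of other exon peaks. Whether each window belongs to the gene of that exon or to another gene was not tested.

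**Figure D3:**
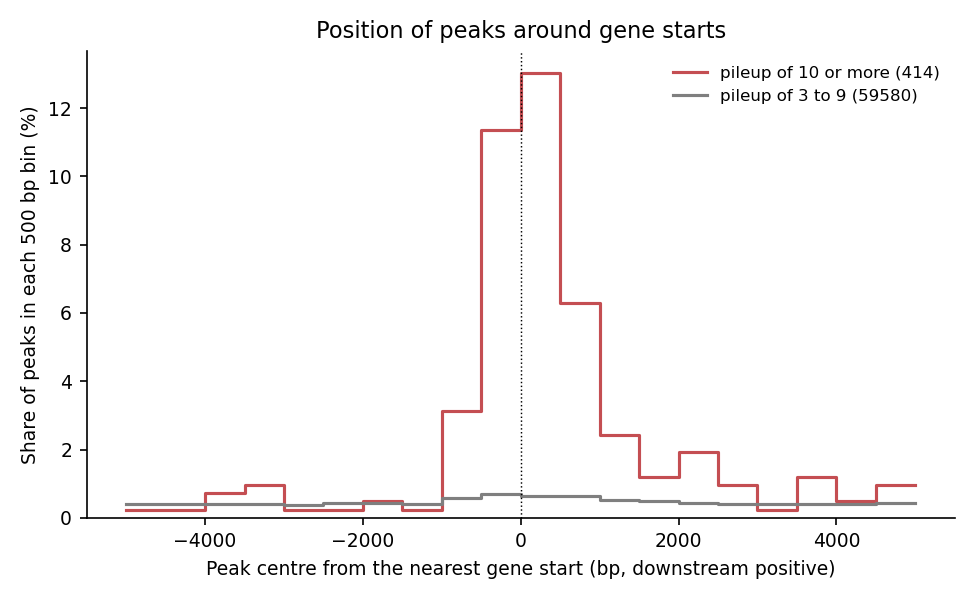
Share of peaks (%) whose centre falls in each 500 bp bin around the nearest gene start, for the 414 members and the 59580 other listed peaks. The bins either side of the start hold 11.4% and 13.04% of members, and 0.712% and 0.648% of other peaks.

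Most of the highest members lay outside genes. The 3 highest lay on chromosome 1, at chr1:125182326-125182678 with a pileup of 327 over a background of 142, chr1:143262541-143262891 with 162 over 66.2 and chr1:143232932-143233208 with 152 over 71.8. All 3 fall in the longest stretch of chromosome 1 without a gene of the table, 121571893 to 143354190, and their nearest starts are those of EMBP1 and CH17-333M13.1, at 3660, 91.3 and 121 kb. The next outside genes were chr10:42081543-42081899 (pileup 60 over 26.2), chr7:56373404-56373726 (55 over 21.2, on the pseudogene LOC100419986), chr4:49708616-49708866 (48 over 19.98) and chr10:42072671-42072958 (47 over 22.7). The fold enrichment of these 7 was 2.03 to 2.52, below the median of 3.70 over all members, so high pileup there went with a background that was high as well. The nearest starts of the 4 on chromosomes 10, 7 and 4 are those of AL031601.5, of a gene known only by a clone name and of SNX18P24, at 50.6 to 170 kb, and these genes with EMBP1 and CH17-333M13.1 stood at or below 0.352 RPKM in every library. Of the 32 members of background 5 or more, 24 (75%) lay outside genes. No source used here says how reads that match several places were treated.

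No centromere or repeat annotation was used. In its place stands the longest stretch of each chromosome without a gene of the table, which spans the centromere on some chromosomes and lies elsewhere on others, as on chromosome 2 (121767854 to 126557434). Inside those stretches lay 26 of 414 members (6.28%, 4.14 to 9.07%) and 0.984% of the other peaks, and within 2 Mb of them 38 members (9.18%, 6.58 to 12.4%) and 3.84%. On chromosome 5 the stretch held 9 members among 47 listed peaks, on chromosome 1 4 of 11, on chromosome 10 3 of 22, on chromosome 20 3 of 9 and on chromosome 14 2 of 19. Of the members of pileup 15 or more, 16 of 45 (35.6%) lay within 2 Mb. Counted over all 280 stretches of 1 Mb or more without a gene, a measure added after the data were seen, members lay inside in 7.97% of cases and other peaks in 9.69%, so the higher share of members did not extend to all long stretches without a gene. Of 8 members (1.93%) the containing or nearest gene belonged to a family duplicated near centromeres (POTEJ, POTEG, FRG1CP, DUX4L8, BAGE2, NBPF19 and ANKRD20A3), against 0.488% of other peaks.

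Members formed 14 clusters when those within 10 kb of each other were joined, holding 36 of the 414. The largest held 6 members in 30131 bp of the short arm of chromosome 21 (8407461 to 8437591), with pileups of 23 to 54 over backgrounds of 6.002 to 21. Its last member, chr21:8437178-8437591 (pileup 54 over 21, q 0.000101), lay over RNA18SN1 within RNA45SN1, the repeated gene for the precursor of the ribosomal RNAs, and within 1 kb of the start of CH507-513H4.3. That gene stood at 5.90, 9.09 and 13.9 RPKM with JunD and at 8.49, 5.71 and 3.27 with the empty vector, overlapping (limma, adjusted p 0.186). Another, chr21:8420224-8420661 (pileup 42 over 15.6), lay over the pseudogene CDC27P10. A second cluster of 5 members, with pileups of 10 to 22, followed at 8448880 to 8464490, and chromosome 21 held 9 of the 26 members of pileup 20 or more. The third cluster, 3 members of pileup 13 to 14 at chr5:34178668-34188596, touched GUSBP18 and C1QTNF3. In all 3 spans every listed peak was a member. A neighbouring listed peak of any pileup within 10 kb was about as frequent for members (40.8%, 36.1 to 45.7%) as for other peaks (42.4%).

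Over a RefSeq pseudogene lay 19 members (4.59%, 2.79 to 7.07%) and 2.12% of other peaks. ACTG1P23, a processed copy of gamma actin on chromosome 3, carried the member of highest fold enrichment, chr3:175977450-175977872, with a pileup of 16 over 0.602, the lowest background of any listed peak, a fold of 10.6 and a q of 1.29e-12. ACTBP8, a copy of beta actin, carried the third highest, chr6:88275914-88276375, with 13 over 0.674, a fold of 8.36 and a q of 1.99e-08. PKMP3, a copy of pyruvate kinase M, carried a member of pileup 11 over 1.25 (fold 5.32, q 0.00141). These 3 stood on a background under the median of all members. The lowest background of any listed peak, 0.602, was not particular to ACTG1P23. Within 0.01 it was held by 4 members and by 10791 other peaks (18.1% of those). The pseudogene covered 91.5 to 100% of the peak's length in these 3. ACTG1P23 was listed at 0 RPKM in 5 of 6 RNA libraries and at 0.126 in the other, and ACTBP8 at 0 in 5 and at 0.0565 in the other. Of the genes they are copies of, chosen here after their values were seen, ACTB stood at 1230 to 1420 RPKM with the empty vector and PKM at 332 to 346, and ACTG1 is described further on. Other pseudogenes under members were LOC100419985 (pileup 34), CDC27P9 (26), GUSBP18 (14 and 13), FGF7P6 (12), GTF2IP4 and PMS2P5 (11 each). The second highest fold, 9.37, was that of chr14:17160353-17160630 (14 over 0.602), in the gene-free stretch of chromosome 14. The other 7 of the 10 highest, with folds of 6.45 to 7.39, lay in introns of AC074391.1, MYL2, LACE1, TMEM178B and CCDC13 or outside genes. For those outside genes, ARPC3P5 and RBBP4P4 had the nearest starts, at whatever distance. The genes named here as containing or nearest to those members stood below 0.7 RPKM in every library.

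Some members lay in exons of highly expressed genes, of which EEF1A1, GAPDH, EEF2, TMBIM6 and NUDT1 were chosen for naming after their values were seen. PRNP, the prion protein gene, carried the fourth highest member of all, chr20:4699616-4699890, with a pileup of 64 over 17.5, a fold of 3.52 and a q of 9.64e-12, centred at 88.0% of the gene's span. Its pileup was the highest of any member in a gene. EEF1A1, translation elongation factor 1 alpha, had 19 over 7.49 (q 0.179), GAPDH, a glycolytic enzyme, 16 over 6.24 (q 0.283), and ATF4, a stress-response transcription factor of the AP-1 related families, 16 over 3.12 (q 0.00384) at 95.3% of its span. FN1, the matrix protein fibronectin, had 13 over 3.12 at 84.7% of its span, ACTG1, gamma actin, 10 over 2.82 at 93.4%, and EEF2, another elongation factor, 10 over 2.498 at 96.1%. Over the 50 members in exons, which make 53 pairs of member and gene, the centre lay at a median of 59.7% of the gene's span in the direction of transcription (quartiles 30.1 and 88%, range 1.6 to 100%). The members of EEF1A1 and GAPDH were centred at 63.6% and 65.9%, that of TMBIM6 at 59.7%, and that of FOS, an AP-1 subunit, at 42.2% of its span (11 over 1.36, q 0.00271). TMBIM6 and NUDT1 members (13 over 2.51 and 13 over 3.75) covered 238 and 250 of 250 bases of an inner RefSeq promoter.

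A member on chromosome 1 (pileup 10 over 3.12, q 0.179) lay in an exon of MIR137HG over the only miRNA hairpin that members touched, miR-137, a neuronal miRNA. The mature 3p strand is printed with its seed, bases 2 to 8, in capitals, as RefSeq gives it (chr1:98046091-98046113, - strand).
hsa-miR-137-3p: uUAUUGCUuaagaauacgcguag

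Genes at the members were expressed at higher levels than genes at lower peaks. An RPKM value is a read count scaled to exon length and to the assigned reads of the library, which allows levels of different genes to be compared per length. In such bulk RNA, fewer cells of a type and less RNA per cell cannot be told apart. Of the 200 genes whose start lay within 1 kb of a member, 143 (71.5%) had a mean of 1 RPKM or more in the 3 empty-vector libraries, with a median of 3.49 RPKM (quartiles 0.639 and 13.6). Of 1875 genes at starts of lower peaks only, 42.6% did, with a median of 0.443 RPKM, and of all 28319 genes at a single place on these chromosomes 44.4%, with a median of 0.555 RPKM. The share ran from 72 to 75.5% over the 6 libraries for genes at members and from 41.6 to 44.2% for those at lower peaks, so the groups of libraries do not reorder the sets. Genes with a member inside but no start near it, 170 in all, had a median of 3.86 RPKM, and 13 of them (7.65%) stood at 100 RPKM or more, against 1.43% of all genes. Of the 376 genes with the nearest start to a member at any distance, 50.8% reached 1 RPKM, against 40.3% for the nearest genes of other peaks. The most abundant genes at member starts encode ribosomal and other housekeeping proteins, RPL8 (216, 211 and 187 RPKM with the empty vector), RPS27 (182, 182 and 189), SNRPC (179, 178 and 174), ST13 and ATP5B. RefSeq calls 73.0% of the 200 genes protein coding, against 54.1% of those at lower peaks.

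**Figure D4:**
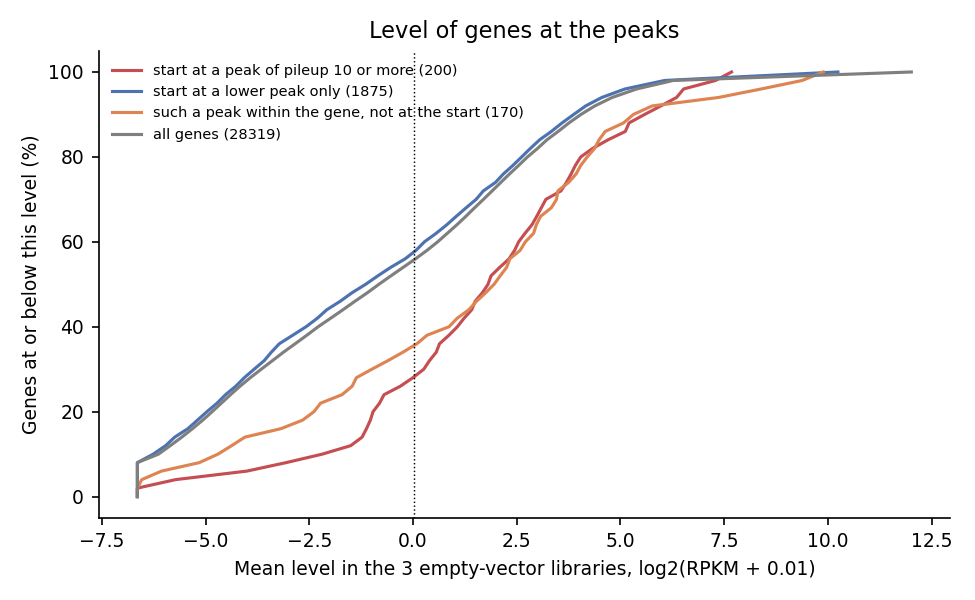
Cumulative share of genes (%) by mean level in the 3 empty-vector libraries, as log2(RPKM + 0.01), for genes starting at a member, genes starting at a lower peak only, genes with a member inside and all genes; the dotted line marks 1 RPKM. Genes at or over members sit to the right, with medians of 3.49 and 3.86 RPKM against 0.443 and 0.555.

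JUND itself stood at 70.3, 63.5 and 103 RPKM in the JunD libraries and at 13.2, 10.5 and 10.6 with the empty vector, and was higher by 2.71 ± 0.19 (SE) on the log2(RPKM + 0.5) scale (limma, adjusted p 0.000102; exact permutation test, two-sided, p = 0.1, the smallest that 3 against 3 allows). No member lay within 10 kb of its start. Over all libraries 15967955 to 29617655 reads were assigned to genes. Of 8 epithelial markers 4 reached 1 RPKM, while KRT19, CDH1 and KRT5 stayed below 0.1 in every library, and the list summed to 417 to 455 RPKM with the empty vector and 313 to 343 with JunD. The 5 mesenchymal markers summed to 274 to 310 and 304 to 382, with COL1A2 and LUM below 0.1 throughout. The 3 matched leukocyte and 3 endothelial markers summed to at most 0.386 RPKM in any library, and the 1 matched marker of ciliated, club and alveolar cells to at most 0.861. Whether the lower epithelial sum has a part in the differences that follow was not tested.

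Genes at member starts changed with JunD about as often as genes at large. Of the 200 genes, 149 had a mean of 1 RPKM or more and were tested with limma, and 37 were higher and 22 lower with JunD at an adjusted p below 0.05. Over all 13379 genes tested, 46.2% were called, 31.5% higher and 14.7% lower, so the shares at member starts, 24.8% and 14.8%, lie near or below the background. Of the 149, 6 reached a mean of 1 RPKM with JunD only and 2 with the empty vector only, and of the 141 that reached it in both groups 34 were higher and 22 lower. At starts of lower peaks, 29.6% of 810 tested genes were higher and 13.5% lower. The median log2 fold change was 0.03 at member starts, 0.10 at starts of lower peaks and 0.10 over all genes tested. Among genes with a member inside but no start near it, 32 of 113 were higher and 23 lower, with a median of 0.04. The split of the 149 genes into 37 higher and 22 lower depends on the scaling, being 29 and 42 after median-of-ratios scaling, 25 and 38 after quantile normalization and 46 and 14 as TPM; these move the median of all genes from 0.10 to -0.02, -0.03 and 0.18. Without empty-vector replicate 1 there were 38 calls in place of 59, and without its replicate 2 there were 37. The shares of all tested genes called under these scalings and without these libraries are not given here. Counts under these settings are therefore not to be set against 31.5% and 14.7%.

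Among genes with a member at the start or inside that rose, IL6, the cytokine interleukin 6, had the largest change. A gene was tested when its mean over all 6 libraries was 1 RPKM or more, which IL6, AC073072.5, CTH and PVT1, all described here, reached through the JunD libraries alone, their empty-vector means being 0.758, 0.484, 0.625 and 0.993 RPKM. IL6 stood at 12.2, 10.7 and 14.9 RPKM with JunD and at 0.981, 0.832 and 0.460 with the empty vector. The difference was 3.39 ± 0.19 (SE) on the log2 scale (limma, adjusted p 3.97e-05). Its member, chr7:22726965-22727639, covers 235 of the 250 bases before the RefSeq start, shown above, but has a pileup of only 10 over 2.19 and a q of 0.114. AC073072.5, whose start lies within 1 kb of the same member, was higher by 2.26 ± 0.18 (limma, adjusted p 0.000168). The exons of both genes overlap, by 20.7% of those of IL6 and 31.4% of those of AC073072.5, and since the strand setting of the counting is not given, their reads cannot be told apart there.

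CD55, which shields cells from complement, stood at 43.8, 42.3 and 42.6 RPKM with JunD and at 18.2, 18.2 and 18.3 without (log2 difference 1.21 ± 0.05 SE, limma adjusted p 7.47e-06). Its member had a pileup of 11 over 2.35 and a q of 0.0721, and was centred 260 bp downstream of the start. SLC43A3, a nucleobase transporter, stood at 47.3, 50.1 and 49.5 RPKM against 21.2, 21.6 and 22.5 (1.15 ± 0.05, limma adjusted p 1.61e-05), with a member of 11 over 1.25 and a q of 0.00137. SPRY4, an inhibitor of receptor tyrosine kinase signalling, stood at 3.94, 3.87 and 3.96 RPKM against 1.47, 1.5 and 1.52, and was higher by 1.15 ± 0.06 (limma, adjusted p 3.5e-05). In all 3 genes the libraries of the groups lie far apart, which goes with their choice among called genes. CTH, an enzyme of cysteine synthesis, stood at 1.93, 1.63 and 2.15 RPKM against 0.678, 0.434 and 0.765 (1.10 ± 0.15, limma adjusted p 0.00137), and its member was centred 49 bp before the start. NR1D1, a repressor of the circadian clock, was higher by 1.05 ± 0.16 (limma, adjusted p 0.00234), LOX, which crosslinks collagen, by 0.81 ± 0.12 (0.00238), and MYC, a growth regulator, by 0.80 ± 0.10 (0.00109). XPC and PALB2, which serve DNA repair, were higher by 0.65 ± 0.09 and 0.58 ± 0.07, and TAPBPL, an antigen-presentation chaperone, by 0.70 ± 0.05. STAT3, which carries cytokine signals, stood at 8.91, 8.94 and 10.2 RPKM against 7.90, 7.53 and 7.37. Its difference of 0.28 ± 0.07 (limma, adjusted p 0.0172) lost its call in 4 of 13 alternatives, for example after quantile normalization (adjusted p 0.0744). The members of SPRY4, CTH, MYC and STAT3 had a q of 0.0977, 0.0721, 0.177 and 0.348, all above 0.05. Those of NR1D1 and LOX had a q of 0.0256 and 0.00163.

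Within gene bodies, SLFN5, an interferon-induced gene, stood at 11.3, 10.7 and 10.1 RPKM with JunD and at 2.53, 2.53 and 2.68 without (1.86 ± 0.06 SE on the log2 scale, limma adjusted p 4.56e-06), with a member of 10 over 1.87 in an intron. ATF4 stood at 368, 399 and 402 RPKM against 174, 166 and 165 (1.21 ± 0.06, limma adjusted p 2.37e-05). ARHGEF2, a guanine nucleotide exchange factor, was higher by 1.14 ± 0.07 (limma, adjusted p 6.02e-05), and its member (10 over 0.799, q 0.000188) had the lowest background among members in exons. PRNP stood at 91.4, 91.3 and 105 RPKM against 56.8, 56.2 and 51.2 (0.80 ± 0.08, limma adjusted p 0.000354), and PVT1, the non-coding gene beside MYC, was higher by 0.89 ± 0.09.

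Among genes that fell at member starts, the lowest difference was that of a gene on chromosome 9 known only by a clone name, which stood at 0.667, 2.19 and 1.87 RPKM with JunD and at 3.32, 3.54 and 3.70 with the empty vector (-1.04 ± 0.30, limma adjusted p 0.0275). It lost its call in 4 of 13 alternatives, among them each that left out an empty-vector library (adjusted p 0.0633 to 0.0771). PCSK7, a proprotein convertase, stood at 1.69, 1.93 and 2.12 RPKM with JunD and at 4.71, 4.12 and 4.52 with the empty vector (-1.04 ± 0.09, limma adjusted p 0.000255). H2AFV, a variant histone of the H2A.Z kind, stood at 12.3, 11.9 and 14.2 RPKM against 25.2, 25.7 and 25.4 (-0.97 ± 0.07, limma adjusted p 0.000154). ESYT1, which tethers the endoplasmic reticulum to the cell membrane, stood at 10.1, 9.79 and 11.1 RPKM against 20.5, 19.7 and 19.0 (-0.90 ± 0.07, limma adjusted p 0.000122). The groups do not overlap in these 4 genes, which goes with their choice among called genes. ID3, an inhibitor of basic helix-loop-helix factors, was lower (-0.73 ± 0.15, limma adjusted p 0.0084), as was ATP5B, the beta subunit of ATP synthase (-0.50 ± 0.09, 0.00562). PRR7 (-0.78 ± 0.23, limma adjusted p 0.0295) lost its call in 6 of 13 alternatives, for example without empty-vector replicate 2 (adjusted p 0.0887). With a member inside, ACTG1 stood at 388, 397 and 492 RPKM against 989, 948 and 865 (-1.14 ± 0.11, limma adjusted p 0.000339) and FN1 at 68.1, 64.6 and 68.9 against 113, 103 and 115 (-0.71 ± 0.06, limma adjusted p 0.000249). LRTOMT (-1.10 ± 0.07), FHOD1, a formin (-0.82 ± 0.10), EPB41L1, a membrane skeleton protein (-0.74 ± 0.05), and GTF2IP4 (-0.69 ± 0.06) were lower too. The members of PCSK7, ESYT1, ID3, PRR7, FN1, FHOD1 and EPB41L1 each had a q of 0.0721. Those of LRTOMT and ACTG1 had a q of 0.114 and 0.214, and that of GTF2IP4 0.00367. GAPDH (-0.29 ± 0.09, limma adjusted p 0.0346) and EEF1A1 (-0.27 ± 0.09, 0.047) lost their calls in 8 of 13 alternatives each. Exons of another gene overlap 30.4% of the exon length of XPC, 29.9% of SLC43A3, 19.7% of PCSK7, 18.6% of LRTOMT, 11.5% of TAPBPL and 10.6% of FHOD1, and ACTG1, GAPDH, EEF1A1 and GTF2IP4 have near-identical copies, so their counts are uncertain to that extent.

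**Figure D5:**
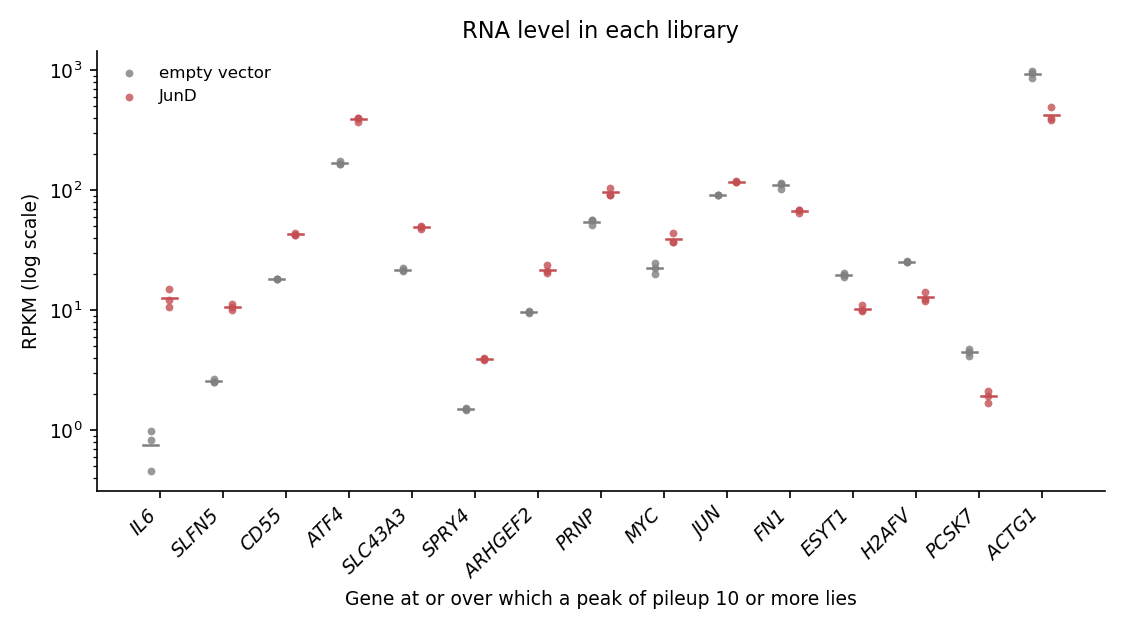
RPKM (log scale) in each of the 3 empty-vector and 3 JunD libraries for 15 genes that have a member at the start or inside, with bars at the group means. All 15 were picked from genes called at a limma adjusted p below 0.05, so the lack of overlap between their groups goes with that choice. Over all 13379 genes tested, 46.2% were called. IL6 differs most of the 15.

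Most AP-1 genes and listed AP-1 targets had no member near them. In the AP-1 list the share with a member, which rests on 3 genes, was above that of all genes. For the target list the interval includes the share of all genes. The lists were not matched to all genes by RNA level. They were chosen with earlier results of these data known, so these shares are a description and not a test. Of 17 matched genes of the AP-1 family list, JUN, FOS and ATF4 (17.6%, exact 95% interval 3.80 to 43.4%) had a member within 10 kb of the start, and of 38 matched genes of the target list 2 did (5.26%, 0.644 to 17.7%), IL6 among them, against 399 of all 28319 genes (1.41%). The JUN member, chr1:58784848-58785249 (11 over 3.13, q 0.179), lay 521 bp upstream of the gene and covered all 250 bases before the start of the divergent JUN-DT. JUN stood at 116, 116 and 119 RPKM with JunD and at 91.9, 91.2 and 90.7 with the empty vector (0.36 ± 0.05, limma adjusted p 0.00121). FOS stood at 0.411, 0.425 and 0.558 RPKM against 0.435, 0.240 and 0.346, overlapping and too low to be tested. In the lists as a whole, 12 of 15 tested AP-1 genes were higher and none lower, with a median log2 fold change of 0.78. That count and that median include JUND itself. Of 26 tested targets, 21 were higher and 1 lower, with a median of 0.99. As among all genes tested, a listed gene could pass the filter through the JunD libraries alone, as IL6 did. Such genes raise these counts and medians, and the lists were not split by this. Over all 13379 genes tested, 31.5% were higher and 14.7% lower. Most called genes of both lists had no member within 10 kb. The nearest start does not show that a member acts on that gene.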

How the data were processed

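Per the labels, BEAS-2B cells gave 1 JunD ChIP library, 1 input library and 6 RNA libraries. The authors deposited RPKM per gene, a fold enrichment (a ratio), a p-value and a q-value (FDR) per peak, and a pileup, which is a coverage signal, per the file headers. The submitters' processing notes name build GRCh38 and MACS2 2.1.1, bedtools 2.25.0, Trimmomatic 0.36, STAR 2.5.3a, Subread 1.5.1 and featureCounts, without saying what each did. No source used here gives the ChIP depth, the handling of multiply matching reads or the strand setting.

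The local background was computed as (pileup + 1) / fold - 1. Places came from the exon coordinates in the RPKM table, for genes at a single place spanning at most 2500000 bp. RPKM times exon length came to whole reads, within 0.01 read, in 100% of genes. Genes with a mean of at least 1 RPKM were tested in R 4.3.3 with limma 3.58.1 (intensity trend) on log2(RPKM + 0.5), a scale that understates changes of low genes, 3 libraries against 3, two-sided, with calls at an adjusted p (Benjamini-Hochberg) below 0.05. The script was tested on simulated data. Shares have exact (Clopper-Pearson) 95% intervals, which cover counting error only. Named were JUND, the 10 members of highest pileup and of highest fold with their genes, genes starting within 1 kb of a member, up to 10 genes per direction with a member inside, pseudogenes, the 3 largest clusters and listed AP-1 genes within 10 kb, apart from 1 gene that is not reported here. Members and lists were chosen with earlier results of these data known. Alternatives varied the thresholds, windows, pseudocount (0.1 and 1), filter, scaling and libraries.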

Additional observations from a re-analysis of the deposited data

Results flagged for a closer look

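Outside chromosomes 1 to 22, which the rule leaves out, the list holds another 22 peaks of pileup 10 or more. Of these, 5 lay on chromosomes X and Y, with pileups of 10 to 12 and a median background of 1.25, and 17 lay on 12 other sequences of the assembly, with pileups up to 67 and a median background of 8.07. They stand out because they are as high as the members and enter no comparison here, and each was called over the input library with a fold enrichment of 2.08 to 6.87.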

How the results depend on the processing

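The start share of 35.3% was 33.8% by peak centre and 39.6% with a 2 kb window, but 23.2% for q below 0.05 only and 13.3% for a pileup of 15 or more. The 14 clusters became 27 with joining at 100 kb, 6 for a pileup of 15 or more and 5 for q below 0.05. The 9.18% of members near the longest gene-free stretches became 15.9% within 5 Mb and 35.6% for a pileup of 15 or more, and 7.97% lay inside any stretch of 1 Mb or more, an alternative added after seeing the data. The 4.59% over pseudogenes was 4.35% and 6.10% under its 2 alternatives. The 50.8% of nearest genes expressed was 71.5% at 0.1 RPKM and 64.0% with starts within 10 kb only. The 59 calls at member starts came to 51 to 71 under other pseudocounts, filters and scalings and to 0 of 5 tested genes for a pileup of 15 or more. Leaving out 1 library gave 37 to 71. Same-numbered JunD and empty-vector libraries did not deviate together (correlations -0.17, -0.08 and -0.38), so the numbers were not taken to pair the samples, and with the replicate block there were 31 calls. Of 36 genes whose RNA difference is given, 5 changed their call, in 30 of 468 pairs of gene and setting, and none changed direction. ChIP depth is unknown, there is 1 precipitate, and peaks are not replicates.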

Other observations

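Members were spread unevenly over chromosomes. On chromosome 20, 37 of 1664 listed peaks were members (2.22%, exact 95% interval 1.57 to 3.05%), and 12 of the 37 lay at gene starts. On chromosome 21 the share was 2.12% (19 of 896), with 2 at starts, and on chromosomes 19, 9 and 12 it was 1.23%, 1.22% and 1.195%. On chromosome 13 none of 1246 listed peaks was a member, which allows a share of up to 0.241% by the limit of 3 counts in the total and up to 0.296% by the exact interval, and on chromosome 4 the 5 members (0.244% of 2047) included none at a start. The labels give no karyotype for these cells, and copy number was not measured here.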
